A study of Mus musculus with 22 samples.

Results

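The genes that carry a cell from G2 through mitosis and cytokinesis were followed on expression arrays of mouse embryonic stem (ES) cells. The set holds 43 named genes: cyclins and Cdk1 regulators, Aurora and Polo kinases, the spindle checkpoint, activators of the anaphase-promoting complex, kinetochore and chromosomal passenger proteins, spindle motors and cytokinesis factors. Probe sets were taken where the platform annotation gives 1 gene symbol and that symbol is a listed gene, and the brightest such probe set, by its mean across the 22 arrays, stood for the gene. In this way 42 of the 43 genes were measured, among 18193 genes in all. Ccnb1 had no such probe set and is not analysed here.

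The cells were of the Rex1GFPd2 line, a reporter line in which the pluripotency gene Rex1 (Zfp42) drives a short-lived green fluorescent protein, so all groups share that allele. Serum-free 2i medium holds PD0325901 (PD), which blocks MEK, together with CHIR99021 (CHIR), which blocks GSK3 and so protects beta-catenin from breakdown. Control cells received siControl#1 or siControl#2 and stayed in 2i (2i control, 4 and 3 arrays) or went into medium with PD as its sole inhibitor 24 hours after transfection (PD-only control, 4 and 3 arrays). Cells given siYAP/TAZ#1 or siYAP/TAZ#2 against Yap1 and Wwtr1 (TAZ) were put into PD-only medium by the same schedule (YAP/TAZ siRNA, 4 and 4 arrays), and all cells were harvested at 72 hours. YAP/TAZ siRNA in 2i was not analysed here, and knockdown by siRNA leaves some target RNA: on the log2 scale Yap1 fell by 1.27 ± 0.03 (SE) and Wwtr1 fell by 1.04 ± 0.03, compared with PD-only control.

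Genes of G2 and mitosis are transcribed late in each cell cycle. In quiescent and early G1 cells the DREAM complex holds them down, and later B-Myb with the MuvB core, and then FoxM1, switches them on; MuvB reaches many of them through a promoter element called the cell cycle genes homology region (CHR), and NF-Y through CCAAT boxes nearby. Mouse ES cells cycle fast with short gap phases. In bulk RNA, fewer cells in G2 and mitosis and less RNA of a gene per cell cannot be told apart.

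Promoter sequence shows which of these elements the genes carry. A stretch from 250 bases before to 50 bases after the start was found in RefSeq (build GRCm38.p6) for 33 of the 42 genes. The CHR core TTTGAA, on either strand, was present in 23 of the 33 (69.7%), against 15.7% of 14452 measured genes with such an entry and 17.9% of all 32851 promoters. CCAAT was present in 75.8% of the 33, against 42.0% of the measured genes and 37.4% of all promoters. The E2F motifs TTCCCGC and TTGGCGC were found in 6.1% of the 33, against 11.7% and 6.8%. The TCF/LEF motifs CTTTGAA and CTTTGAT, of which the first contains the CHR core, were found in 12.1%, against 8.1% and 8.7%. With CHR matches inside TCF/LEF motifs set aside, 66.7% of the 33 still held a CHR core, against 11.6% and 13.6%. The TEAD motif GGAATG, bound by the partners of YAP and TAZ, was found in 15.2%, against 15.3% and 14.7%. A match describes letters and not a bound site, and both strands were searched for each motif.

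**Figure D1:**
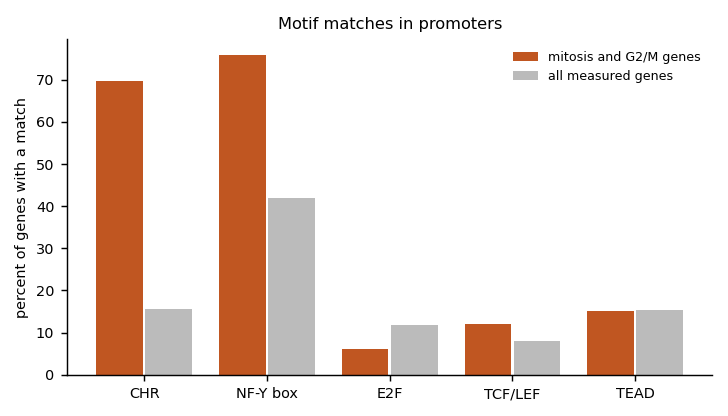
Percent of genes with at least 1 match of each motif from 250 bases before to 50 bases after the start, for the 33 mitosis and G2/M genes with a promoter entry (orange) and for 14452 measured genes (grey). CHR cores stand at 69.7% against 15.7% and CCAAT (NF-Y box) at 75.8% against 42.0%, while TEAD motifs stand at 15.2% against 15.3%.

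The 120 bases directly upstream of the RefSeq start are printed below for 6 genes whose expression is described further on, 5′ to 3′ on the gene's strand, with CHR cores (TTTGAA, or TTCAAA for the other strand) and CCAAT boxes (CCAAT or ATTGG) in capitals. Cdc20 (chr4:118437344-118437463, minus strand), Cdk1 (chr10:69352913-69353032, minus strand) and Ube2c (chr2:164769809-164769928, plus strand) hold both elements and were lower in 2i. Kif11 (chr19:37376262-37376381, plus strand) also holds both and was lower in 2i and higher with YAP/TAZ siRNA. Bub1 (chr2:127831860-127831979, minus strand) holds CCAAT boxes and no CHR core in the window, and it moved in the same directions as Kif11. Aurkc (chr7:6995265-6995384, plus strand), which was higher in 2i, has neither in this stretch, and its CCAAT match lies after the start.
Cdc20: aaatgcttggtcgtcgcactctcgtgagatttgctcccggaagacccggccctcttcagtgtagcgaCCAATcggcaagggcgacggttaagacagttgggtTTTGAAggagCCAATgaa
Cdk1: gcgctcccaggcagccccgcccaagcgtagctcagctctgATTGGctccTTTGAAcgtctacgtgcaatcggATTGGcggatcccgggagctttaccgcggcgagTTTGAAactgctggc
Ube2c: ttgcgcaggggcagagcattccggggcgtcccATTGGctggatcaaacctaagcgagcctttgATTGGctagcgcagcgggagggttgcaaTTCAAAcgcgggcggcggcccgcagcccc
Kif11: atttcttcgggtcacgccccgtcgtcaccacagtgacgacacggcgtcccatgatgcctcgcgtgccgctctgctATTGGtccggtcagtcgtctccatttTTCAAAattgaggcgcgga
Bub1: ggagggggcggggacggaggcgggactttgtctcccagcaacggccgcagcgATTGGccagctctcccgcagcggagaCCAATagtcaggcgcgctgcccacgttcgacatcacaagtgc
Aurkc: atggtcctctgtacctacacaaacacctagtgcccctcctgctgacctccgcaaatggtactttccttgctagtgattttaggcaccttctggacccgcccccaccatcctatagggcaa
The CHR core of Cdc20 lies 18 to 13 bases before the start, that of Kif11 19 to 14 bases before it, and that of Ube2c 29 to 24 bases before it. Cdk1 has 2 cores, at 71 to 66 and at 15 to 10 bases before the start, and the first of these lies inside a TCF/LEF motif.

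Values are log2 expression as deposited, and arrays of the same arm correlated over all genes at 0.9977 or more. The ES label held: the 8 pluripotency markers, Pou5f1, Sox2 and Nanog among them, averaged 12.11 to 12.45 on each of the 22 arrays, against a median of all genes of 6.62. Their mean was 12.39 to 12.45 in 2i control, 12.11 to 12.15 in PD-only control and 12.27 to 12.3 with YAP/TAZ siRNA. Of the 8, 7 were higher and 1 (Utf1) was lower in 2i than in PD-only control. With YAP/TAZ siRNA 4 were higher and 1 (Utf1) was lower. Markers of other cell types moved with the arms as well. Of 10 fibroblast markers 8 were lower in 2i than in PD-only control and 6 were lower with YAP/TAZ siRNA, and their summed linear level was 258 to 302 in 2i control, 1872 to 2043 in PD-only control and 292 to 329 with YAP/TAZ siRNA. Col1a2 and Col1a1, at means of 9.73 and 9.09, were the brightest fibroblast markers in PD-only control and weigh most in that sum. Lum and Fap were not called in either comparison. Of 10 trophoblast markers 7 and 6 were lower and 1 and 2 were higher. Over all genes 26.7% were lower and 31.3% higher in 2i, and 26.3% and 35.5% with YAP/TAZ siRNA. The trophoblast sum was 1085 to 1153, 24308 to 25358 and 1823 to 2124. Krt8 and Krt18, at means of 13.43 and 13.53, were the brightest of that list in PD-only control. Krt8, Krt18 and Krt7 were lower in 2i by -6.67, -6.04 and -4.57 on the log2 scale. Cdx2 went the other way, higher in 2i by 0.55 and with YAP/TAZ siRNA by 1.07, and Tfap2c was higher with YAP/TAZ siRNA by 0.71. These normalised values have no zero, so no marker can be said to be at 0. The Actb 3′ minus 5′ control value, which grows as RNA degrades, was 0.66 to 0.75 in PD-only control. It was 0.87 to 1.19 in 2i control and 0.88 to 1.07 with YAP/TAZ siRNA, and both ranges lie above that of PD-only control. The like value of Gapdh was -0.09 to -0.06, -0.04 to 0.04 and -0.07 to 0.05 in the same order, so the siRNA arm overlapped PD-only control there. The part of the markers in the results was not tested. That of the Actb value was examined by taking it as a covariate, as given with the counts. Because the Actb range of PD-only control met neither other arm, the covariate cannot be fully separated from the arm.

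Control cells in 2i expressed nearly the whole mitotic set at a lower level than control cells in PD-only medium. Of the 42 genes 39 were lower, 1 (Aurkc) was higher, and Foxm1 and Cdc25c did not pass the test (limma, Benjamini-Hochberg adjusted p of 0.05 over all genes). Of all 18193 genes 26.7% were called lower and 31.3% higher. The lower calls included 15 genes down by at least 0.5 on the log2 scale, where the background was 9.39%, and Cdc20 alone was down by at least 1 (background 4.12%). For 35 genes every 2i array lay below every PD-only control array, against 19% of all genes. The median difference was -0.38, against 0.044 over all genes, and 41 of the 42 genes lay below that all-gene median. With each array's median over the 18193 genes subtracted, the all-gene median moved by 0.12, and the members' counts were 35 lower and 2 higher. Nek2, Ttk and the uncalled Cdc25c changed sign there, and the calls over all genes became 19% lower and 57.5% higher. Array medians below are likewise taken over these genes. Medians over all 45101 probe sets differed less between arms, and subtracting those was not tried. They were 5.51 to 5.54 in 2i control, 5.54 to 5.55 in PD-only control and 5.51 to 5.52 with YAP/TAZ siRNA. With the Actb value as a covariate 34 genes were lower. The share of all genes called under that covariate is not given here.

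YAP/TAZ siRNA in PD-only medium was accompanied by smaller and mixed differences from the PD-only control arrays, the same arrays that the 2i comparison used. The deposited values gave 24 genes lower and 9 higher, against 26.3% and 35.5% of all genes. This split turned to 12 lower and 18 higher with each array's median subtracted, which moved the all-gene median by 0.137 and changed the calls over all genes to 18.4% lower and 64.4% higher. Under all 3 scalings 12 genes were lower and 9 higher. The median was -0.094 as deposited and 0.043 with array medians subtracted, in both cases 0.155 below the all-gene median, and 32 of 42 genes lay below that median. Ccnb2 was down by at least 0.5 and Aurkc was up by at least 0.5 (background 10.2% and 7.01%). The YAP/TAZ siRNA and control arrays did not overlap for 16 genes that were lower (background 19.3%) and 8 that were higher (background 21.1%). The Actb covariate left 16 genes lower and 12 higher. The shares above belong to the fit without it, and those with it are not given here.

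Compared with 2i control, cells with YAP/TAZ siRNA in PD-only medium expressed the set at a higher level. By limma 39 genes were higher, against 25.5% of all genes, and 0 were lower (0 also at an unadjusted p under 0.05), against 22.8%. The genes not past the threshold were Foxm1, Bub3 and Ect2. Of the 39, 11 were higher by at least 0.5 (background 4%), and for 34 the arrays of the arms did not overlap (background 14.9%). The median difference was 0.36, against 0.015 over all genes, and 40 of 42 genes lay above that all-gene median. This comparison uses the 2i control arrays of the first comparison and the siRNA arrays of the second, so the 3 sets of values are not independent.

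**Figure D2:**
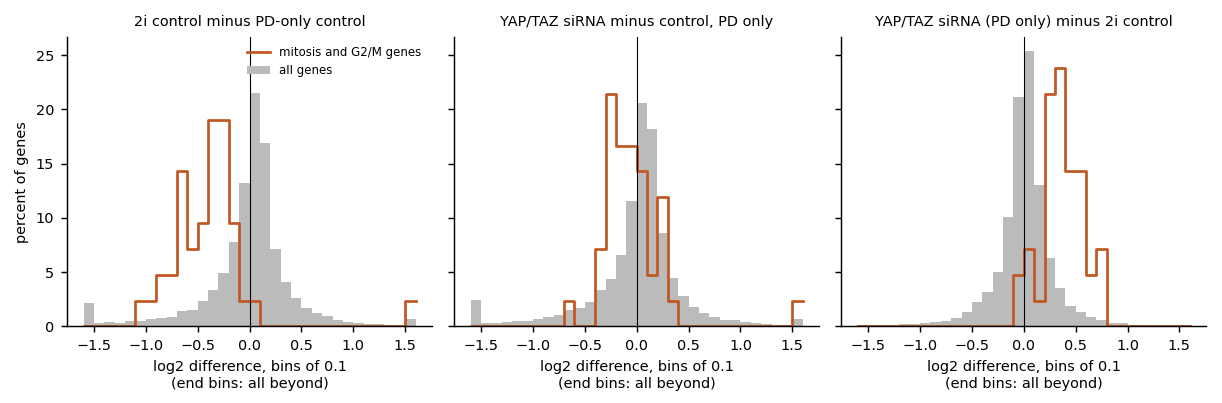
Percent of genes per bin of 0.1 in log2 difference, for the 42 mitosis and G2/M genes (orange line) and for all 18193 genes (grey), in the 3 comparisons of deposited values; end bins hold all genes beyond the axis. The mitotic genes have medians of -0.38, -0.094 and 0.36, against 0.044, 0.061 and 0.015 for all genes. Their middle median turns to 0.043 when each array's median over the 18193 genes is subtracted.

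Counts by role, each of 3 to 8 genes, stand here and below beside the shares over all genes. Those shares were 26.7% lower and 31.3% higher in 2i, and 26.3% and 35.5% with YAP/TAZ siRNA. For YAP/TAZ siRNA against 2i control they were 22.8% and 25.5%. Among genes for entry into mitosis, 5 of 7 were lower in 2i, and 3 were lower and 1 higher with YAP/TAZ siRNA. Against 2i control 6 were higher with YAP/TAZ siRNA. Ccnb2, which encodes cyclin B2, a partner of Cdk1, ranged from 10.61 to 10.77 in 2i control (median 10.73), from 11.63 to 11.70 in PD-only control (median 11.68) and from 10.95 to 11.08 with YAP/TAZ siRNA (median 10.99). The 3 arms did not overlap, with 2i lowest and the siRNA arm between. The Ccnb2 difference was -0.95 ± 0.03 (SE) in 2i against PD-only control (adjusted p = 2.91e-17), and -0.67 ± 0.03 with YAP/TAZ siRNA against the same control arrays (adjusted p = 4.5e-15). It had the lowest siRNA difference of the 42 genes.

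Cdk1, the kinase that cyclins A and B activate to start mitosis, ranged from 11.14 to 11.30 in 2i control (median 11.23), from 11.75 to 11.83 in PD-only control (median 11.79) and from 11.58 to 11.72 with YAP/TAZ siRNA (median 11.64). Its arms did not overlap either, in the same order. The Cdk1 difference was -0.57 ± 0.03 in 2i (adjusted p = 2.95e-13), -0.14 ± 0.03 with YAP/TAZ siRNA (adjusted p = 8.58e-05) and 0.42 ± 0.03 for YAP/TAZ siRNA against 2i control (adjusted p = 4.29e-11). With array medians subtracted the siRNA value was -0.008 and the call was lost (adjusted p = 0.756). Ccna2 (cyclin A2) was lower in 2i by -0.34 ± 0.03 and with YAP/TAZ siRNA by -0.11 ± 0.03, and the second value changed sign to 0.03 with array medians subtracted. Another Ccna2 probe set of similar mean signal (10.83 against 10.89) had -0.60 ± 0.03 in 2i. With YAP/TAZ siRNA it had -0.078 ± 0.033 and was not called (adjusted p = 0.0513).

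The enzymes that set the inhibitory phosphate on Cdk1 did not move as one. Wee1, the kinase that adds it, was lower in 2i (-0.30 ± 0.03), as was Cdc25b, a phosphatase that removes it (-0.43 ± 0.05), and neither passed the test with YAP/TAZ siRNA (0.006 ± 0.029 and -0.050 ± 0.048, the second turning to 0.087 with array medians subtracted). Cdc25c, the related phosphatase, ranged from 7.48 to 7.85 in 2i control, from 7.64 to 7.91 in PD-only control and from 7.95 to 8.17 with YAP/TAZ siRNA, so that only the siRNA arm stood clear of the others. Its difference with YAP/TAZ siRNA was 0.25 ± 0.06 (adjusted p = 0.000442). In 2i against PD-only control it was -0.12 ± 0.06 (adjusted p = 0.079), and the call passed at adjusted p of 0.0226, 0.035 and 0.0428 without replicate A of control siRNA 2 in 2i, without replicate A of control siRNA 1 in PD-only medium, and without replicate C of control siRNA 2 in PD-only medium.

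Foxm1, the transcription factor of late cell cycle genes, ranged from 6.81 to 7.11 in 2i control (median 6.95), from 6.84 to 6.99 in PD-only control (median 6.94) and from 6.72 to 7.16 with YAP/TAZ siRNA (median 6.98). These ranges overlapped throughout. Its differences were 0.013 ± 0.052, 0.012 ± 0.050 and -0.001 ± 0.050, with 95% intervals of -0.095 to 0.122, -0.092 to 0.117 and -0.105 to 0.104. Its probe sets did not behave alike: a second one of similar mean signal (6.88 against 6.93 over all arrays) had -0.53 ± 0.05 in 2i (adjusted p = 3.22e-08) and 0.49 ± 0.05 for YAP/TAZ siRNA against 2i control, so the level of Foxm1 RNA is not settled by these arrays.

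**Figure D3:**
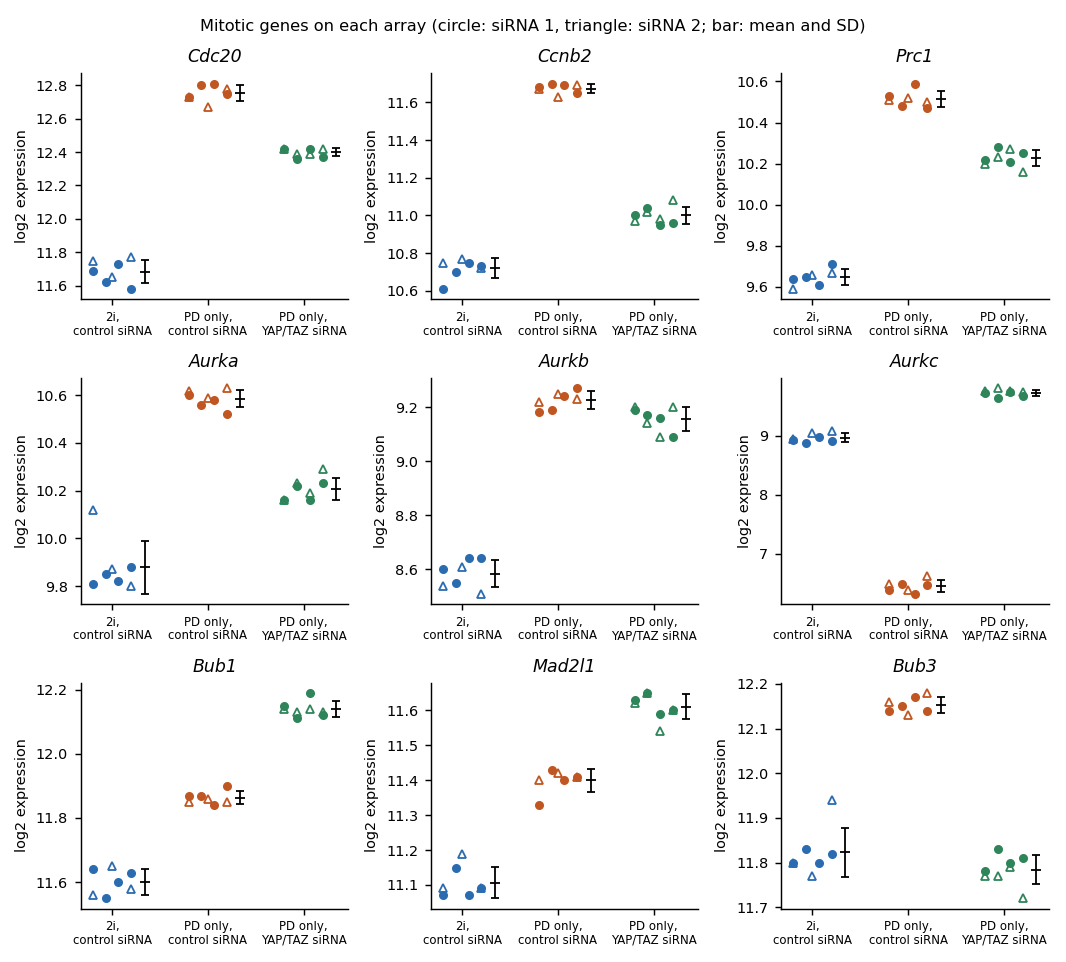
Log2 expression of 9 genes on each array (circle: siRNA 1; triangle: siRNA 2) in 2i control (blue, n = 7), PD-only control (orange, n = 7) and PD-only YAP/TAZ siRNA (green, n = 8), with the mean and SD beside each arm; each panel has its own axis, which does not start at 0. Cdc20, Ccnb2, Prc1 and Aurka are lowest in 2i with the siRNA arm between, Bub1 and Mad2l1 are highest with YAP/TAZ siRNA, Bub3 is high in PD-only control, Aurkc is low there, and the siRNA difference of Aurkb changes sign from -0.072 to 0.065 with array medians subtracted.

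The mitotic kinases split in 2i. Of the 5 Aurora, Polo and centrosome kinases 4 were lower in 2i and Aurkc was higher; 3 were lower and 2 higher with YAP/TAZ siRNA; and all 5 were higher with YAP/TAZ siRNA than in 2i control. Aurka, the kinase of the spindle poles, ranged from 9.80 to 10.12 in 2i control (median 9.85), from 10.52 to 10.63 in PD-only control (median 10.59) and from 10.16 to 10.29 with YAP/TAZ siRNA (median 10.21). The arms did not overlap, though 1 array of 2i control, at 10.12, lay nearer to the siRNA arm than to the other 2i arrays. The Aurka difference was -0.70 ± 0.04 in 2i (adjusted p = 1.65e-12) and -0.38 ± 0.04 with YAP/TAZ siRNA (adjusted p = 1.26e-08).

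Aurkb, the kinase of the chromosomal passenger complex, ranged from 8.51 to 8.64 in 2i control (median 8.60), from 9.18 to 9.27 in PD-only control (median 9.23) and from 9.09 to 9.20 with YAP/TAZ siRNA (median 9.17). Its 2i arrays stood apart from the rest, and the PD-only arms overlapped. In 2i it was lower by -0.65 ± 0.03 (adjusted p = 2.69e-14). The siRNA difference was -0.072 ± 0.026 (adjusted p = 0.0243), and it turned to 0.065 with array medians subtracted. That call was lost, at adjusted p of 0.0527, 0.0548, 0.0544 and 0.057, without replicate D of control siRNA 1, replicate B of control siRNA 2, replicate D of YAP/TAZ mix 1 or replicate C of YAP/TAZ mix 2, all in PD-only medium.

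Aurkc, the Aurora kinase best known from meiosis, went the other way. It ranged from 8.88 to 9.08 in 2i control (median 8.94), from 6.33 to 6.63 in PD-only control (median 6.48) and from 9.63 to 9.80 with YAP/TAZ siRNA (median 9.73). PD-only control was far below the other arms, near the median of all genes, and the siRNA arm lay above 2i control with no overlap. Aurkc was 5.69-fold higher in 2i (log2 2.51 ± 0.04, adjusted p = 6.99e-22) and 9.55-fold higher with YAP/TAZ siRNA (log2 3.26 ± 0.04, adjusted p = 8.44e-24) than in PD-only control. Against 2i control the YAP/TAZ siRNA value was 1.68-fold higher (log2 0.75 ± 0.04, adjusted p = 4.95e-13). Folds against the dim PD-only level may be understated, because background compresses differences at low signal.

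Plk1, the Polo kinase that acts from mitotic entry to cytokinesis, was lower in 2i by -0.66 ± 0.02 and with YAP/TAZ siRNA by -0.18 ± 0.02, a call that was lost with array medians subtracted (-0.039, adjusted p = 0.107). Nek2, a kinase that separates the centrosomes, ranged from 9.98 to 10.12 in 2i control (median 10.03), from 10.05 to 10.18 in PD-only control (median 10.12) and from 10.33 to 10.46 with YAP/TAZ siRNA (median 10.44). The siRNA arm stood above the control arms, which overlapped each other. Its siRNA difference was 0.30 ± 0.03 (adjusted p = 1.72e-09). Its 2i difference of -0.076 ± 0.026 (adjusted p = 0.0179) turned to 0.044 with array medians subtracted and to between 0.005 and 0.122 under the other rules for choosing a probe set, and without replicate B of control siRNA 2 in PD-only medium it was -0.068 (adjusted p = 0.0512).

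In the spindle checkpoint, which holds anaphase back until every kinetochore is attached, all 5 genes were lower in 2i (-0.33 to -0.11), and Ttk changed sign to 0.01 there with array medians subtracted. With YAP/TAZ siRNA 3 of the 5 were higher and 1 was lower, beside 35.5% and 26.3% of all genes. Bub1, a kinase that builds the checkpoint signal at kinetochores, was higher by 0.28 ± 0.02 (adjusted p = 6.02e-10). Mad2l1 (Mad2), which binds and blocks Cdc20, was higher by 0.21 ± 0.03 (adjusted p = 3.25e-07), and Ttk (Mps1), the kinase at the top of the pathway, by 0.18 ± 0.03 (adjusted p = 3.06e-05). For these 3 genes the siRNA arrays lay above all PD-only control arrays. A second, dimmer Ttk probe set had -0.12 ± 0.05 (adjusted p = 0.0492). Bub1b (BubR1) did not pass the test with YAP/TAZ siRNA (-0.017 ± 0.056), and its value changed sign to 0.12 with array medians subtracted.

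Bub3, the adaptor that carries Bub1 and BubR1 to the kinetochore, differed from its partners. It ranged from 11.77 to 11.94 in 2i control (median 11.80), from 12.13 to 12.18 in PD-only control (median 12.15) and from 11.72 to 11.83 with YAP/TAZ siRNA (median 11.79). PD-only control lay above both other arms, which overlapped. The Bub3 difference was -0.33 ± 0.03 in 2i (adjusted p = 4.18e-10) and -0.37 ± 0.02 with YAP/TAZ siRNA (adjusted p = 3.09e-11). Between YAP/TAZ siRNA and 2i control it was -0.041 ± 0.024, with a 95% interval of -0.092 to 0.010 (adjusted p = 0.187).

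The target of the checkpoint, Cdc20, had the lowest 2i difference in the set. Cdc20 activates the anaphase-promoting complex, the ubiquitin ligase that destroys cyclin B and securin. It ranged from 11.58 to 11.77 in 2i control (median 11.69), from 12.67 to 12.81 in PD-only control (median 12.75) and from 12.36 to 12.42 with YAP/TAZ siRNA (median 12.41). The arms were apart, with 2i lowest and the siRNA arm nearer to PD-only control. In 2i it was 2.09-fold lower (log2 -1.06 ± 0.03, adjusted p = 1.72e-17), with YAP/TAZ siRNA 1.28-fold lower (log2 -0.35 ± 0.03, adjusted p = 6.81e-10), and with YAP/TAZ siRNA 1.64-fold higher than in 2i control (log2 0.71 ± 0.03).

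Ube2c, the ubiquitin-conjugating enzyme of the complex, was lower in 2i by -0.69 ± 0.03 (adjusted p = 1.53e-13) and did not pass the test with YAP/TAZ siRNA, where its value was -0.033 ± 0.031 as deposited and 0.104 with array medians subtracted. Against 2i control it was higher with YAP/TAZ siRNA by 0.65 ± 0.03. Pttg1 (securin), which holds separase inactive until anaphase, was lower in 2i by -0.52 ± 0.04 and with YAP/TAZ siRNA by -0.25 ± 0.04.

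Centromere and kinetochore genes were lower in 2i in 5 of 5 cases, from -0.54 ± 0.03 for Cenpf to -0.18 ± 0.03 for Ndc80, whose call was lost with array medians subtracted (-0.059, adjusted p = 0.0559). They were higher with YAP/TAZ siRNA than in 2i control in 5 of 5 cases, from 0.096 ± 0.028 for Ndc80 to 0.35 ± 0.04 for Cenpe, a kinetochore motor. A second Cenpe probe set, of mean signal 9.155 against 9.77, had the opposite sign there (-0.16 ± 0.07, adjusted p = 0.056). In 2i it had 0.14 ± 0.07 (adjusted p = 0.0948), so neither value passed the threshold. Against PD-only control, Cenpf was lower with YAP/TAZ siRNA (-0.22 ± 0.03). So were Nuf2 (-0.095 ± 0.037) and Ndc80 (-0.083 ± 0.028), of the microtubule-binding complex of the kinetochore, though these turned to 0.042 and 0.054 with array medians subtracted, and quantile normalization took Nuf2 to -0.025 (adjusted p = 0.534). The Nuf2 call was lost, at adjusted p of 0.0505 to 0.0917, without replicate A or B of control siRNA 2, replicate A or D of YAP/TAZ mix 1, or replicate A of YAP/TAZ mix 2 in PD-only medium. Cenpe (0.041 ± 0.039) and Cenpa, the centromeric histone (0.048 ± 0.021, adjusted p = 0.0587), were not called. Cenpa passed at adjusted p of 0.0441, 0.0362 and 0.0419 without replicate B or C of control siRNA 2 in 2i or replicate B of control siRNA 1 in PD-only medium.

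Partners of Aurora B in the chromosomal passenger complex, which corrects faulty attachments and later directs cytokinesis, were all lower in 2i. Birc5 (survivin) was lower by -0.67 ± 0.03, Cdca8 (borealin) by -0.50 ± 0.04 and Incenp by -0.39 ± 0.03. With YAP/TAZ siRNA the Birc5 value was 0.002 ± 0.024 (95% interval -0.049 to 0.053), while Incenp was lower by -0.18 ± 0.03 and Cdca8 by -0.15 ± 0.04. Both calls were lost with array medians subtracted, at -0.039 (adjusted p = 0.206) and -0.015 (adjusted p = 0.75). A dim Incenp probe set was called the other way there (0.14 ± 0.06). Against 2i control Birc5 was higher by 0.68 ± 0.02.

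Of the 8 genes for spindle proteins, motors and chromosome structure, 8 were lower in 2i and 8 were higher with YAP/TAZ siRNA than in 2i control. Nusap1, a microtubule-bundling spindle protein (-0.74 ± 0.02), and Tpx2, which activates Aurora A on the spindle (-0.70 ± 0.03), had the lowest 2i differences of the group. Top2a, the topoisomerase that untangles sister chromatids (-0.47 ± 0.03), Hmmr (-0.46 ± 0.03), the chromokinesin Kif4 (-0.32 ± 0.04), Kif11 (Eg5, which pushes spindle poles apart; -0.30 ± 0.02), Kif2c (-0.21 ± 0.03) and Dlgap5 (-0.19 ± 0.04) followed. A dim Top2a probe set was called higher in 2i (0.28 ± 0.09). With the Actb covariate the 2i difference of Dlgap5 was 0.014 in place of -0.194, and with array medians subtracted its call was lost (-0.074, adjusted p = 0.113).

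Of those 8, 5 were lower and 2 higher with YAP/TAZ siRNA, beside 26.3% and 35.5% of all genes. Hmmr (-0.26 ± 0.03), Tpx2 (-0.23 ± 0.03) and Nusap1 (-0.20 ± 0.02) were lower under each scaling. Kif4 (-0.12 ± 0.04) and Top2a (-0.093 ± 0.025) were lower as deposited and turned to 0.017 and 0.044 with array medians subtracted, and the dim Top2a probe set was called higher (0.23 ± 0.09). Kif2c, a kinesin that takes microtubules apart at the kinetochore, ranged from 10.43 to 10.59 in 2i control (median 10.52), from 10.66 to 10.80 in PD-only control (median 10.74) and from 10.94 to 11.10 with YAP/TAZ siRNA (median 11.02). No arms overlapped, and the siRNA arm was highest. Its siRNA difference was 0.30 ± 0.03 (adjusted p = 2.41e-08), and that of Kif11 was 0.12 ± 0.02 (adjusted p = 0.000124). The Dlgap5 value was 0.063 ± 0.041 and not past the threshold, and its second, dimmer probe set had -0.17 ± 0.04.

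Genes of the central spindle and cytokinesis were lower in 2i in 6 of 6 cases, and 3 of them were down by more than 0.5. Kif23, the motor subunit of centralspindlin, ranged from 9.30 to 9.43 in 2i control (median 9.34), from 10.21 to 10.30 in PD-only control (median 10.26) and from 9.99 to 10.21 with YAP/TAZ siRNA (median 10.13). The 2i arrays stood apart, and the highest siRNA array met the lowest PD-only control array. Kif23 was 1.86-fold lower in 2i (log2 -0.90 ± 0.03, adjusted p = 3.84e-15), and YAP/TAZ siRNA was 1.69-fold higher than 2i control (log2 0.76 ± 0.03, adjusted p = 1.01e-13). Its siRNA difference of -0.14 ± 0.03 went to 0 with array medians subtracted.

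Prc1, which bundles the antiparallel microtubules of the central spindle, was lower in 2i by -0.87 ± 0.03, and Racgap1, the other centralspindlin subunit, by -0.70 ± 0.04. A second Racgap1 probe set of similar mean signal (9.03 against 9.23) had a smaller 2i difference of -0.365 ± 0.029. With YAP/TAZ siRNA Prc1 (-0.29 ± 0.03), Racgap1 (-0.28 ± 0.04) and Anln, the contractile ring scaffold anillin (-0.28 ± 0.03), were lower under each scaling. Kif20a, a kinesin that brings Plk1 to the central spindle, was higher there by 0.23 ± 0.05, while its 2i difference was -0.22 ± 0.05 and became 0.019 with the Actb covariate. Ect2, which activates RhoA at the division plane, ranged from 10.83 to 10.93 in 2i control (median 10.86), from 11.05 to 11.27 in PD-only control (median 11.17) and from 10.85 to 11.12 with YAP/TAZ siRNA (median 10.95). The siRNA arm overlapped both others. Ect2 was lower in 2i (-0.29 ± 0.04, adjusted p = 3.35e-06) and with YAP/TAZ siRNA (-0.20 ± 0.04, adjusted p = 0.00015), and the siRNA call was lost with array medians subtracted (-0.068, adjusted p = 0.136). Between the latter and 2i control the value was 0.089 ± 0.040 (adjusted p = 0.0762), and it passed at 0.0379, 0.0278 and 0.0443 without replicate B or D of YAP/TAZ mix 1 or replicate B of YAP/TAZ mix 2.

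**Figure D4:**
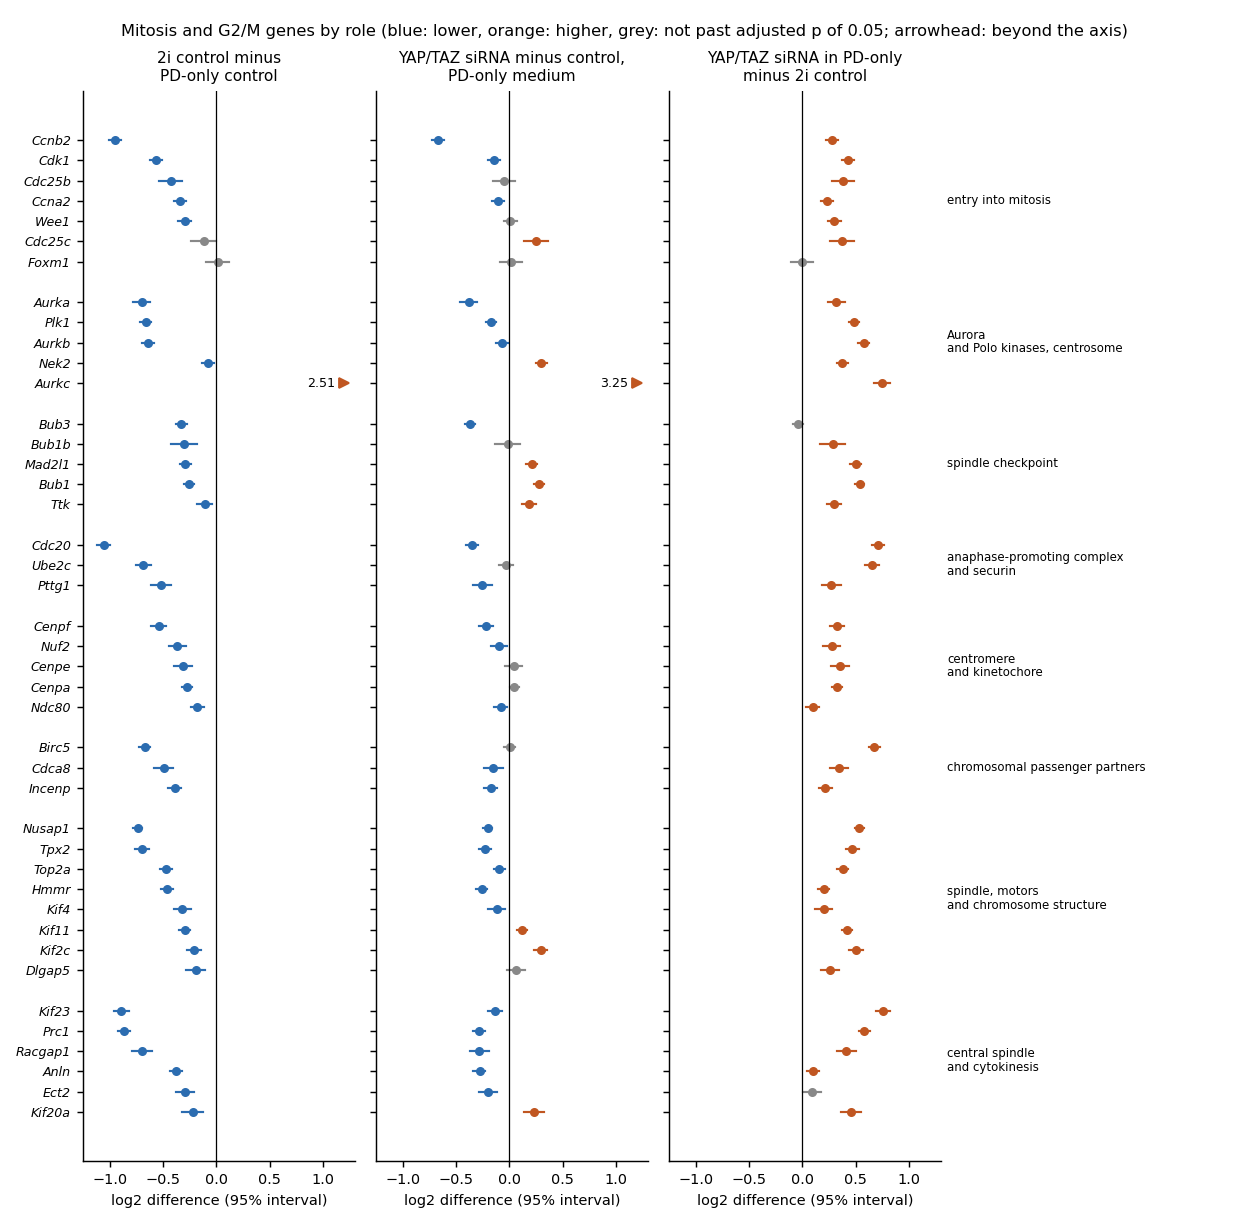
Log2 differences with 95% intervals of the 42 genes, grouped by role, in the 3 comparisons of deposited values; the first 2 share the PD-only control arrays, and Aurkc, at 2.51 and 3.26, lies beyond the axis. In 2i 39 genes are lower, and 39 are higher with YAP/TAZ siRNA than in 2i control; with array medians subtracted Cdc25c, Nek2 and Ttk change sign in the first panel, and Ccna2, Cdc25b, Aurkb, Bub1b, Ube2c, Ndc80, Nuf2, Kif4, Top2a and Kif23 in the second.

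The 2 siRNAs of each kind gave like results for the set. The 2i difference measured with control siRNA 1 minus that with control siRNA 2 ran from -0.114 (Cdc20) to 0.132 (Kif4), and YAP/TAZ mix 1 minus mix 2 from -0.168 (Foxm1) to 0.093 (Pttg1). By limma 0 of 42 genes were called in either comparison, where 0% of all genes were called. At an unadjusted p under 0.05 there were 0 and 1 (Foxm1), against 5.22% and 3.57% of all genes. The half-width of the 95% interval had a median of 0.124 and 0.081 over the set, so smaller differences between siRNAs could not be resolved.

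Other G2/M genes moved in both directions in 2i. Of 66 measured out of 68 listed, 34 were lower and 13 higher in 2i, which turned to 25 lower and 26 higher with array medians subtracted. The shares over all genes were 26.7% lower and 31.3% higher, or 19% and 57.5% with array medians subtracted. In the siRNA comparison 17 were lower and 35 higher, beside 26.3% and 35.5% of all genes. With array medians subtracted these were 7 and 47, beside 18.4% and 64.4%. Against 2i control 3 were lower and 47 higher, beside 22.8% and 25.5% of all genes (3 and 51 with array medians subtracted). Their median differences were -0.105, 0.093 and 0.189, and the first became 0.015 with array medians subtracted. Mki67, the proliferation marker Ki-67, was lower in 2i (-0.45 ± 0.03) and with YAP/TAZ siRNA (-0.10 ± 0.03), the latter turning to 0.033 with array medians subtracted. The lowest 2i value was that of the phosphatase gene Cdkn3 (-0.58 ± 0.03), and the highest that of Cep55 (0.50 ± 0.03), a factor of the final cut between daughter cells. The highest siRNA values were those of the kinetochore gene Cenpm (0.87 ± 0.03) and of Sgo2a (0.79 ± 0.03), which protects centromeric cohesin in meiosis.

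The list for the anaphase-promoting complex, which Cdc20 activates, holds 15 genes: subunits and Fzr1 (Cdh1), a co-activator like Cdc20. In 2i 6 were lower and 4 higher, beside 26.7% and 31.3% of all genes (6 and 7 with array medians subtracted, beside 19% and 57.5%). With YAP/TAZ siRNA 3 were lower and 10 higher, beside 26.3% and 35.5% (3 and 12 with array medians subtracted, beside 18.4% and 64.4%). Anapc15 had the lowest 2i value of these (-0.55 ± 0.04), and was higher with YAP/TAZ siRNA (0.39 ± 0.04). Anapc10, which helps to bind substrates, had the highest siRNA value (0.53 ± 0.03).

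Among 18 measured regulators of G2/M transcription, 4 were lower and 8 higher in 2i, beside 26.7% and 31.3% of all genes (2 and 12 with array medians subtracted, beside 19% and 57.5%). In the siRNA comparison 3 were lower and 11 higher, beside 26.3% and 35.5% (3 and 15 with array medians subtracted, beside 18.4% and 64.4%). Cdkn1a (p21), an inhibitor of cyclin-dependent kinases, ranged from 10.62 to 10.79 in 2i control, from 10.07 to 10.15 in PD-only control and from 10.62 to 10.73 with YAP/TAZ siRNA. PD-only control lay below both other arms. It was higher in 2i by 0.58 ± 0.03 and with YAP/TAZ siRNA by 0.55 ± 0.03 than in the same control arrays. Rbl1 (p107), a pocket protein of DREAM, was higher in 2i (0.88 ± 0.03) and with YAP/TAZ siRNA (0.29 ± 0.03). Rb1, the retinoblastoma protein, was lower in both (-0.83 ± 0.04 and -0.54 ± 0.03). Lin9, of the MuvB core, was higher in 2i by 0.50 ± 0.05, and E2f1 was higher with YAP/TAZ siRNA by 0.65 ± 0.05. Mybl2 (B-Myb) was higher in 2i (0.23 ± 0.04) and not past the threshold with YAP/TAZ siRNA (0.022 ± 0.035).

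Promoter elements and differences can be set side by side within the set, as a description. The 23 genes with a CHR core had median differences of -0.47 in 2i, -0.15 with YAP/TAZ siRNA and 0.33 between the latter and 2i control. For the 10 genes with an entry and no core in the window the medians were -0.34, 0.022 and 0.44. Bub1, Mad2l1, Nek2 and Aurkc, all higher with YAP/TAZ siRNA, are among the 10, and Ttk, Kif2c and Kif11, higher as well, are among the 23.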

How the data were processed

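Total RNA of 22 ES cell cultures was labelled with biotin by an Affymetrix 3′ kit and hybridised to 1 array each, per the labels' protocols. The authors made the deposited log2 values with RMA, per the submitters' processing notes; its version is not given in the sources used here. Their log2 scale was inferred from that tool and from the values, which run from 2.09 to 14.91. RMA as usually run aligns the arrays' distributions and gives no detection call, so a change in total RNA per cell cannot be seen. Of 45101 probe sets 34945 have 1 gene symbol in the platform annotation, 932 have several and 9160 are not listed; 64 control probe sets were left out. The 42 genes have 98 such probe sets, and 29 genes have more than 1. Of the 56 probe sets not chosen, 30 had the same call as the chosen one in 2i and 1 the opposite call. With YAP/TAZ siRNA 35 had the same call and 3 the opposite, and against 2i control 36 and 1.

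Each of the 6 combinations of medium and siRNA had its own mean in a linear model (limma 3.58.1 under R 4.3.3, with moderated variances on 16 residual plus 3.1 prior degrees of freedom), and arms were compared as averages of their siRNA groups. P-values were adjusted by Benjamini-Hochberg over 18193 genes and called at 0.05; errors of differences are SEs of the model. The labels call arrays biological replicates without naming separate days, so p-values cover the spread between arrays, which may be technical, and precision is limited by how many arrays there are. The medium change in the PD-only arms is not given for 2i, so its effect and that of losing CHIR cannot be told apart. The test was tried on simulated data in which 200 of 18193 genes were changed, with the comparisons in the order used above. It recovered 6%, 14% and 6% of changes of 0.1 on the log2 scale, and 48%, 56% and 46% of changes of 0.2. Of changes of 0.5 it recovered 92%, 96% and 100%, with 6, 7 and 8 false calls. Small differences were thus often missed in that setting. Far more genes were called in the data (26.7% lower and 31.3% higher in 2i), which loosens the adjusted threshold. These rates therefore do not carry over to the data.

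The genes of the set, the other lists, the motifs and the alternatives were chosen with earlier results of these data known. Array values were given for the 3 lowest and 3 highest genes of each comparison and for Foxm1, Cdk1 and the Aurora kinases, with Cdc25c and Cdkn1a added after their values were seen; of other lists, up to 3 called genes at either end were named, plus Mki67, Mybl2, Cdkn1a, Yap1 and Wwtr1. Alternatives covered the choice of probe set, cross-hybridising probe sets, dim genes, scaling, variance model, array weights, arrays in the fit, siRNA pooled, as a random block (statmod 1.5.0) or singly, the replicate block, the Actb value as a covariate, each array left out, a call at 0.01, and the motif window. Figures used matplotlib 3.10.9 and tables pandas 2.3.3 in Python 3.11.15.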

Additional observations from a re-analysis of the deposited data

Results flagged for a closer look

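Within an arm, 8 array values lay far from the others by Dixon's 95% rule, in 126 tests of 42 genes in 3 arms; chance flags about 1 in 20 groups. In 2i control, replicate A of control siRNA 2 had Aurka at 10.12, against 9.88 for the nearest of the other arrays. Replicate C of control siRNA 2 in 2i accounted for 4 of the 8: Bub3 at 11.94 (nearest 11.83) and Cdca8 at 11.38 (nearest 11.23) lay above the arm, and Cenpa at 11.02 (nearest 11.09) and Kif4 at 8.57 (nearest 8.76) lay below it. In PD-only control, replicate A of control siRNA 1 had Mad2l1 at 11.33, against 11.40. With YAP/TAZ siRNA, replicate B of mix 1 had Ccna2 at 11.03, against 10.93, and replicate D of mix 2 had Pttg1 at 10.31, against 10.51.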

How the results depend on the processing

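Counts of called genes and medians of the set were recomputed under each alternative. Leaving out each of the 22 arrays in turn gave 38 to 40 genes lower in 2i, 22 to 24 lower and 9 to 10 higher with YAP/TAZ siRNA, and 39 to 40 higher with YAP/TAZ siRNA than in 2i control. Same-lettered replicates showed no pairing in their values. Their deviations correlated at -0.077 to 0.124 (median 0.002), and 5 of 22 arrays correlated best with their own letter. Whether a letter marks cultures run together is not stated in the labels, and these correlations cannot decide it. With the letter as a replicate block the counts were 39 lower and 1 higher, 24 lower and 9 higher, and 0 lower and 39 higher, so no count moved. Subtracting array medians over the 18193 genes gave 2 higher in 2i, and 12 lower and 18 higher with YAP/TAZ siRNA. The medians of the set were then -0.255 in 2i and 0.043 with YAP/TAZ siRNA. Quantile normalization gave 2 higher in 2i and a 2i median of -0.324. The mean of all probe sets gave medians of -0.293 in 2i and 0.278 between YAP/TAZ siRNA and 2i control. The probe set of largest variance gave a 2i median of -0.447 and 1 gene lower between YAP/TAZ siRNA and 2i control (Dlgap5).

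Single genes reversed as follows; where no setting shows it by construction, the cause was not tested. With array medians subtracted, which adds the same amount to every gene, the 2i value was 0.044 for Nek2, 0.01 for Ttk and 0.001 for the uncalled Cdc25c, and the siRNA value 0.03 for Ccna2, 0.065 for Aurkb, 0.12 for Bub1b, 0.104 for Ube2c, 0.054 for Ndc80, 0.042 for Nuf2, 0.017 for Kif4, 0.044 for Top2a, 0 for Kif23 and 0.087 for the uncalled Cdc25b, which was 0.064 with quantile normalization. Calls lost without a change of sign were those of Ndc80 and Dlgap5 in 2i and of Cdk1, Plk1, Incenp, Cdca8 and Ect2 with YAP/TAZ siRNA. With the mean of all probe sets, Foxm1 was -0.132 in 2i and 0.183 between YAP/TAZ siRNA and 2i control, Nek2 0.039 in 2i, and Dlgap5 -0.002 between YAP/TAZ siRNA and 2i control. With the probe set of largest variance, 2i values were -0.529 for Foxm1, 0.122 for Nek2, 0.138 for Cenpa, 0.133 for Cenpf and 0.093 for Dlgap5, the siRNA value of Dlgap5 was -0.168, and values between YAP/TAZ siRNA and 2i control were 0.492 for Foxm1, -0.217 for Cenpa, -0.318 for Cenpf and -0.261 for Dlgap5. Without cross-hybridising probe sets Nek2 was 0.005 in 2i. With the Actb covariate Dlgap5 was 0.014 and Kif20a 0.019 in 2i, and Bub1b 0.231 with YAP/TAZ siRNA. In a motif window starting 100 bases before the start, 66.7% of the 33 genes held a CHR core, against 6.5% of measured genes and 8.0% of all promoters. Contrasts within 1 kind of siRNA could not be fitted with siRNAs pooled or taken singly. Signal over background is not known for RMA values.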
